A study of Homo sapiens with 6 samples.

Results

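The genes described here are the 40 listed members of the unfolded protein response and of the ATF4 response, by which cells answer misfolded protein in the endoplasmic reticulum (ER) and shortage of amino acids. A member was found by its gene symbol in the platform annotation, current or older, and all of its probes were taken. Of the 40 members 39 had at least 1 probe, 54 probes in all, and 32 passed the detection filter and were tested among 10470 genes. HCT116, an established human colorectal carcinoma cell line, carried either an shRNA labelled shTCF7L1 (3 arrays) or a control shRNA labelled shCtrl (3 arrays). An shRNA is a hairpin transcript that directs degradation of a matching mRNA, and TCF7L1 is a DNA-binding factor of the TCF/LEF family in Wnt signalling. The labels give neither the hairpin sequences nor any treatment that stresses the ER, and the replicates of each condition are called biological in the series' design text.

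Transcript levels were read on Illumina BeadChips as the average brightness of the beads that carry a probe (bead signal, linear, with no unit). Between 16055 and 17384 of 47225 probes (34.0% to 36.8%) were above background per array, that is, had a detection p below 0.01. Each group occupied its own run of positions on a single chip, so group and position cannot be told apart. TCF7L1 itself was read by a dim probe, with signals of 29.3, 32.4 and 25.4 in shTCF7L1 and 45.1, 35.8 and 40.6 in shCtrl. It was above background on 0 shTCF7L1 and 2 shCtrl arrays and did not pass the detection filter, so no fold is given. All 3 shTCF7L1 signals were below all 3 shCtrl signals. Of 10 markers of intestinal epithelium 6 passed the filter, among them EPCAM and KRT19, while CDH17, VIL1, LGALS4 and CDX1 were above background on no array. Of 8 fibroblast, leukocyte and endothelial markers CD68 and COL1A1 passed and 4 were above background on no array. The summed signal of these 8 was 394 to 444 in shTCF7L1 and 319 to 384 in shCtrl, and that of the 10 epithelial markers 7232 to 9801 in shTCF7L1 and 7999 to 9991 in shCtrl. In a fit of the kept probes with the marker probes added, COL1A1 rose by 1.14 (SE 0.28, limma adjusted p = 0.0131) and the keratin gene KRT8 fell by 0.82 (adjusted p = 0.0342). The part of these markers in the results below was not tested.

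As background, the ER senses misfolded protein through a trio of membrane proteins. The kinase PERK (gene EIF2AK3) phosphorylates the translation factor eIF2, which lowers most protein synthesis but lets the ATF4 mRNA be translated. ATF4 then switches on genes of amino acid supply, and prolonged signalling adds DDIT3 (CHOP) and its targets. The nuclease IRE1 (gene ERN1) splices XBP1 mRNA, and ATF6 is released by the proteases of the Golgi, MBTPS1 among them. Both drive the chaperone genes of the ER and the machinery that exports misfolded proteins for degradation. The arrays measure mRNA only: phosphorylation of eIF2, translation of ATF4, splicing of XBP1 and cleavage of ATF6 were not measured.

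Of the 32 tested members 3 passed the threshold (adjusted p below 0.05 over all 10470 genes): TRIB3 and CEBPG fell in shTCF7L1 cells and OS9 rose. That is 9.38% of the members, and over all genes the share was 15.0%. By direction the background was 7.12% of genes lower and 7.84% higher. The median log2 fold change (shTCF7L1 minus shCtrl, as throughout) was -0.17 over the 32 members and 0.02 over all genes. Values were below 0 for 21 of 32 members and for 48.0% of all genes. The arrays of the groups did not overlap in 8 members, 4 of them lower and 4 higher in shTCF7L1. All shTCF7L1 arrays lay below all shCtrl arrays in 15.8% of all genes and above them in 18.1%, together 33.9%. Only 1 member passed without shCtrl replicate 3 or without shTCF7L1 replicate 1. With the authors' processed values 1 member was lower and 2 were higher, in place of 2 and 1, and of all calls 67.4% were increases, against 52.4% here.

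**Figure D1:**
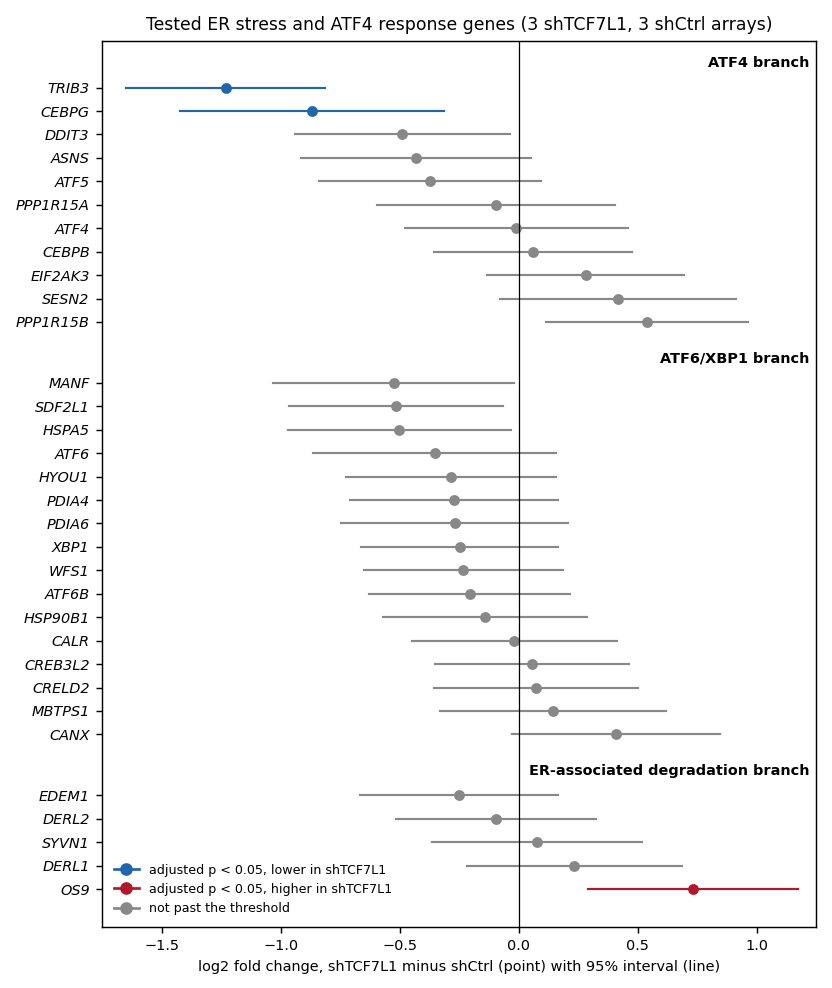
Log2 fold change (shTCF7L1 minus shCtrl, x axis) of the 32 tested members by branch, each point with its 95% interval from limma (3 arrays per group). TRIB3 (-1.23) and CEBPG (-0.87) are marked as lower and OS9 (0.73) as higher, and the 16 members of the ATF6/XBP1 branch lie between -0.53 and 0.41.

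The ATF4 branch held 14 members, of which 11 were tested, 2 fell and 9 did not pass. The share called, 18.2%, was near the 15.0% of all genes. The median log2 fold change of the 11 was -0.10, and -0.37 with the 9 that were above background on all arrays. With an array left out it ran from -0.26 without shTCF7L1 replicate 2 and -0.19 without shCtrl replicate 2 to -0.0024 without shCtrl replicate 3 and -0.0075 without shTCF7L1 replicate 1, and it was -0.020 without shCtrl replicate 1 and -0.15 without shTCF7L1 replicate 3. TRIB3 (chr20:380760-397559, GRCh38.p14) encodes a pseudokinase that is induced by ATF4 and CHOP and binds ATF4. Its signal was 148, 177 and 170 in shTCF7L1 and 335, 323 and 395 in shCtrl. Every shTCF7L1 array was far below every shCtrl array. The normalized log2 level was 7.20 ± 0.14 in shTCF7L1 and 8.44 ± 0.17 in shCtrl (SD, n = 3 each), so TRIB3 fell by 1.23 on the log2 scale (SE 0.20, 95% interval -1.65 to -0.81), 2.35-fold lower in shTCF7L1 (limma adjusted p = 0.000922). The adjusted p stayed between 0.00078 and 0.00734 over all 15 alternatives, and the log2 value between -1.31 and -1.07.

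CEBPG (chr19:33373709-33382686, GRCh38.p14) encodes a partner with which ATF4 can form heterodimers on its DNA sites. The signals were 114, 242 and 202 in shTCF7L1 and 375, 259 and 263 in shCtrl. The groups did not overlap, and replicate 1 of shTCF7L1 was much lower than the other two. The log2 level was 7.32 ± 0.60 in shTCF7L1 and 8.19 ± 0.22 in shCtrl (SD, n = 3 each). CEBPG thus fell by 0.87 on the log2 scale (SE 0.26, 95% interval -1.42 to -0.32, limma adjusted p = 0.0337). Without shTCF7L1 replicate 1 the difference was -0.53 and did not pass (adjusted p = 0.150). Leaving out an shCtrl array also ended the CEBPG call, with adjusted p = 0.121 for replicate 1, 0.0727 for replicate 2 and 0.0626 for replicate 3.

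The promoters of both genes are shown because these are the ATF4-branch members that passed. RefSeq (build GRCh38.p14) lists windows from 250 bases before to 50 after a transcript start, 3 of them for TRIB3 and 2 for CEBPG. They were searched on both strands for TGATGNAA, the core of the C/EBP-ATF response element (CARE) that ATF4 dimers bind, and for TGACGTCA, the cyclic AMP response element (CRE). Capitals mark matches, and each sequence reads in the direction of its gene. The first TRIB3 window lies at chr20:381045-381344 on the plus strand and the second CEBPG window at chr19:33373863-33374162 on the plus strand.
TRIB3: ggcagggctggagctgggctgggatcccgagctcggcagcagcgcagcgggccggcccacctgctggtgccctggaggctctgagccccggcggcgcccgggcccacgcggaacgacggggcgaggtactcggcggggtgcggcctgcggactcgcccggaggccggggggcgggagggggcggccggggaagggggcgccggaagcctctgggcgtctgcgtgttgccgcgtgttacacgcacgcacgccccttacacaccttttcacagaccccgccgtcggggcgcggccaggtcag
CEBPG: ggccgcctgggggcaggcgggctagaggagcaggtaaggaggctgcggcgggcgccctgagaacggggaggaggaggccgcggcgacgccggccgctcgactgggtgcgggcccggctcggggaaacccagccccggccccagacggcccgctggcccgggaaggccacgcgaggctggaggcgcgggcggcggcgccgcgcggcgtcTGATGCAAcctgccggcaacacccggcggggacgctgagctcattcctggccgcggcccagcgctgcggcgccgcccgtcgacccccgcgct
The CEBPG window held 1 CARE core, TGATGCAA, at bases -42 to -35 from the start. None of the TRIB3 windows held the letters searched for, nor did the first CEBPG window. The CARE core was in 4 of the 13 ATF4-branch members with a window (ASNS, CEBPG, CHAC1 and PPP1R15B) and in 4.46% of the 27305 genes of the table. In ASNS, where it reads TGATGAAA, it lies at -68 to -61. The CRE was in 2 members, CREB3L2 and PPP1R15A, and in 2.25% of genes. A match describes the letters only.

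ATF4 itself was bright and gave no difference beyond its spread at the probe that represents it. Its signals were 2848, 3860 and 4260 in shTCF7L1 and 4619, 3000 and 4012 in shCtrl. The groups overlapped widely, and the log2 difference was -0.01 (SE 0.22, 95% interval -0.48 to 0.46, limma adjusted p = 0.982), an interval of 0.717 to 1.37 as a ratio. The pair of dimmer ATF4 probes disagreed in sign, with log2 differences of 0.52 (SE 0.21, adjusted p = 0.103) and -0.39 (SE 0.20, adjusted p = 0.223) in the fit of all 16835 kept probes. In the first of these all shTCF7L1 arrays were above all shCtrl arrays, and in the second all were below.

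DDIT3, which encodes the stress factor CHOP, had signals of 82.4, 109 and 73.5 in shTCF7L1 and 111, 118 and 101 in shCtrl. All shTCF7L1 normalized levels lay below all shCtrl levels. The log2 difference was -0.49 (SE 0.21, 95% interval -0.94 to -0.04) and did not pass over all genes (limma adjusted p = 0.134, unadjusted p = 0.0351). The related factor ATF5 gave -0.37 (SE 0.22) and CEBPB, a C/EBP factor with many inducers, 0.06 (SE 0.20), and neither passed. EIF2AK3, the PERK gene, had 67.0, 71.1 and 65.1 in shTCF7L1 and 50.3, 54.9 and 58.3 in shCtrl. Its groups did not overlap, but the log2 difference of 0.28 (SE 0.20, 95% interval -0.13 to 0.69) did not pass (limma adjusted p = 0.357).

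ASNS, which encodes asparagine synthetase and is a long-known ATF4 target, was read by a pair of probes with differences of unequal size. The brighter one had signals of 1018, 1100 and 1085 in shTCF7L1 and 1476, 1931 and 1109 in shCtrl. The normalized level of shCtrl replicate 3 lay within the range of the shTCF7L1 arrays, and the log2 difference of -0.43 (SE 0.23) did not pass (limma adjusted p = 0.220). The dimmer one had 198, 128 and 217 in shTCF7L1 and 447, 307 and 667 in shCtrl, with no overlap. It was 2.82-fold lower in shTCF7L1 (log2 SE 0.28, adjusted p = 0.00254 over all kept probes, log2 -1.73 to -1.21 in fits lacking an array). Of all kept probes 13.1% passed, 6.59% lower and 6.47% higher, and of the 43 kept probes of members 4 passed, 3 lower and 1 higher. With the mean of both probes ASNS passed as a gene (-0.96, adjusted p = 0.00427), and without a detection filter the dimmer probe did not (adjusted p = 0.0814). The annotation used here does not say which transcripts each probe reads.

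The feedback members and the remaining ATF4-branch targets showed no call. PPP1R15A (GADD34) and PPP1R15B (CReP) guide the phosphatase that reverses eIF2 phosphorylation. PPP1R15B had signals of 50.9, 56.2 and 50.8 in shTCF7L1 and 35.5, 35.6 and 43.3 in shCtrl, above background on 3 shTCF7L1 arrays and 1 shCtrl array. Its groups did not overlap, and the log2 difference was 0.54 (SE 0.20, limma adjusted p = 0.0809). The gene passed with the authors' processed values (0.65, adjusted p = 0.0400), and its other probe gave 0.13 (SE 0.20). PPP1R15A gave -0.10 (SE 0.24), and SESN2, an inhibitor of mTORC1 signalling, 0.42 (SE 0.23, adjusted p = 0.246). CHAC1, which degrades glutathione, and the lipoprotein receptor VLDLR were above background on no array. NUPR1, a small stress-induced nuclear protein, was above background on 2 shTCF7L1 arrays and 0 shCtrl arrays at 1 of its probes (45.3, 55.1 and 31.6 in shTCF7L1, 34.3, 26.7 and 30.7 in shCtrl) and was not tested. The groups overlapped at this probe, and its other probe was above background on no array.

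**Figure D2:**
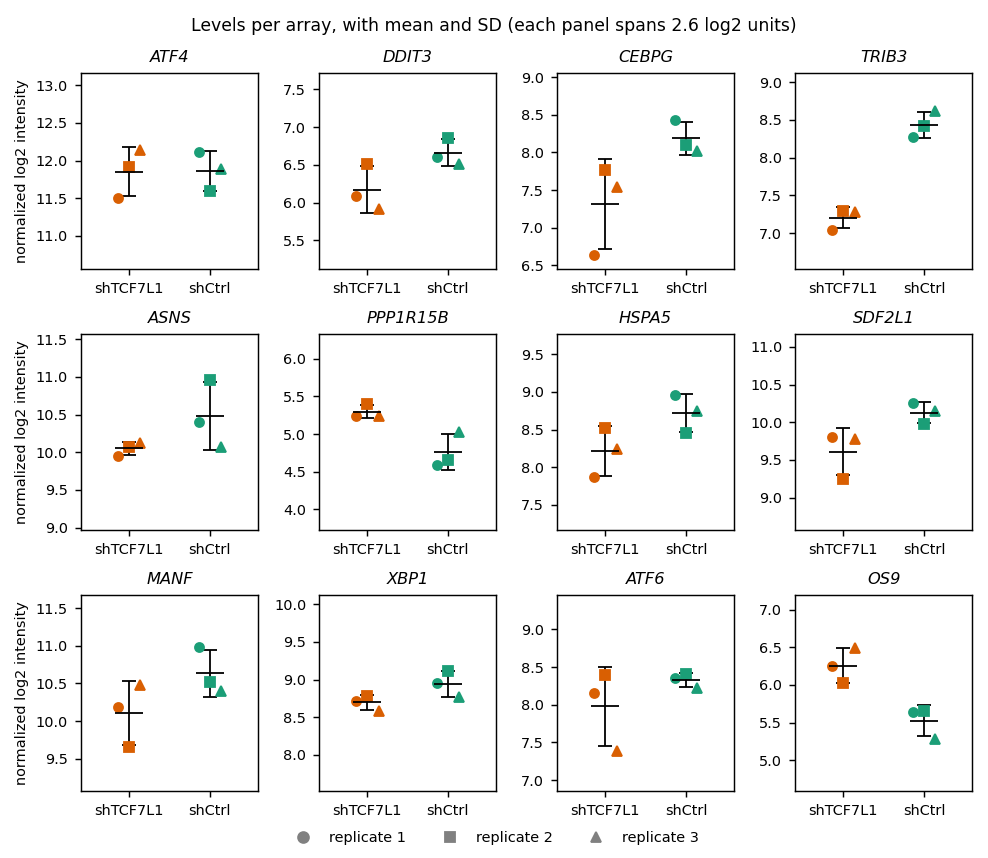
Normalized log2 intensity (y axis, with the same span in each panel) of 12 members on each array, shTCF7L1 left and shCtrl right, with the mean and SD of 3 arrays and one symbol per replicate. The groups do not overlap in TRIB3, CEBPG, OS9, DDIT3, PPP1R15B and SDF2L1, and they overlap in the other panels, ATF4 among them. CEBPG and ATF6 each have an shTCF7L1 array far below the rest (6.64 and 7.39).

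In the ATF6/XBP1 branch, with 18 members and 16 tested, 0 passed in limma and 3 had an unadjusted p below 0.05 (SDF2L1, HSPA5 and MANF, all lower). The median log2 fold change was -0.24, between -0.25 and -0.17 over the alternatives, and 12 of 16 values were below 0. Background shares are those given above. HSPA5 encodes BiP, the main Hsp70 chaperone of the ER lumen, which also holds the sensors inactive. Its signals were 254, 401 and 317 in shTCF7L1 and 538, 334 and 429 in shCtrl. The groups overlapped, since shTCF7L1 replicate 2 lay above shCtrl replicate 2. The log2 difference was -0.50 (SE 0.22, 95% interval -0.97 to -0.03), a ratio of 0.705 with bounds of 0.510 and 0.976 (limma adjusted p = 0.138).

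SDF2L1, a cofactor in ER protein quality control, had 915, 640 and 863 in shTCF7L1 and 1322, 968 and 1163 in shCtrl. Its groups did not overlap, and the log2 difference was -0.52 (SE 0.21, limma adjusted p = 0.111). MANF, a secreted protein of the ER stress response, had 1171, 839 and 1381 in shTCF7L1 and 2178, 1405 and 1402 in shCtrl. Its normalized levels overlapped, and the log2 difference was -0.53 (SE 0.24, limma adjusted p = 0.152). The Hsp70-like HYOU1 gave -0.29 (SE 0.21, and -0.47 at its other probe). HSP90B1, which encodes GRP94, the Hsp90 of the ER, gave -0.14 (SE 0.20, 95% interval -0.57 to 0.29).

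Calnexin and calreticulin are the lectin chaperones, which bind the sugars of folding glycoproteins. CANX, the calnexin gene, had 294, 363 and 289 in shTCF7L1 and 271, 225 and 186 in shCtrl. All shTCF7L1 arrays were above all shCtrl arrays at both of its probes, with log2 differences of 0.41 (SE 0.21, limma adjusted p = 0.197) and 0.57 (SE 0.23, adjusted p = 0.104). Its soluble relative CALR gave -0.02 (SE 0.20, 95% interval -0.45 to 0.41). The disulfide isomerases PDIA4 and PDIA6 gave -0.27 each (SE 0.21 and 0.23). The 1 probe of PDIA3 was above background on no array, which does not show that its mRNA is absent. CRELD2, an ER stress-inducible secreted protein, gave 0.07 (SE 0.20) and WFS1, a membrane protein of the ER, -0.23 (SE 0.20). None of these passed.

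The regulators of this branch gave no call either. XBP1 had signals of 442, 475 and 394 in shTCF7L1 and 537, 524 and 437 in shCtrl, with a log2 difference of -0.25 (SE 0.20, 95% interval -0.66 to 0.17) and -0.30 at its other probe. The groups overlapped by shTCF7L1 replicate 2 alone, at a normalized level of 8.78 against 8.77 in shCtrl replicate 3. ATF6 had 306, 366 and 183 in shTCF7L1 and 356, 322 and 301 in shCtrl. Replicate 3 of shTCF7L1 stood well below the other arrays, and the log2 difference was -0.35 (SE 0.24, limma adjusted p = 0.348). Its relative ATF6B gave -0.21, 0.08 and 0.30 at its probes, the ATF6-like CREB3L2 0.06 (SE 0.19) and the site-1 protease gene MBTPS1 0.14 and -0.25 at its probes. ERN1, the IRE1 gene, was above background on no array, with signals of 25.8, 25.4 and 21.3 in shTCF7L1 and 19.3, 21.6 and 18.6 in shCtrl.

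The HSPA5 promoter is shown because it carries the ER stress response element (ERSE), which ATF6 binds together with NF-Y. The ERSE was searched on both strands as CCAAT and CCACG with 9 bases between them, and its second form, ERSE-II, as ATTGG and CCACG with 1 base between them. The window lies at chr9:125241294-125241593 on the minus strand of GRCh38.p14 (RefSeq), reads in the direction of the gene, and has the ERSE in capitals.
HSPA5: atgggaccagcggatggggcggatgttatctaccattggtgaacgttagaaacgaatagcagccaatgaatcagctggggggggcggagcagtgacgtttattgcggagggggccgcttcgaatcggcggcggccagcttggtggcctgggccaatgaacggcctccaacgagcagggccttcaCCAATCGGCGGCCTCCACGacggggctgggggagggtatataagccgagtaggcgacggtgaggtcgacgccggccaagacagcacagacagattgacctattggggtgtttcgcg
The match spans bases -66 to -48. An ERSE was found in 7 of the 17 ATF6/XBP1-branch members with a window and in 0.0916% of the 27305 genes of the table, and ERSE-II in 2 of the 17 and in 0.0696% of genes. The ERSE matches of 4 further members are printed below. Their ends are the same because the search required it, so only the 9 bases of the spacer could differ. The HSP90B1 match printed lies on the opposite strand, so that it reads as the reverse complement.
XBP1: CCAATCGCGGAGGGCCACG
CANX: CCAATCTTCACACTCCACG
PDIA6: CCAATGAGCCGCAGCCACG
HSP90B1: CGTGGTGCGGCGCGATTGG
The shorter site TGACGTGG, bound by ATF6 and XBP1, was in 1 of the 17 (HYOU1, where it overlaps an ERSE-II match) and in 0.927% of genes. The 9 tested members with either form of ERSE (CALR, CANX, CRELD2, HSP90B1, HSPA5, HYOU1, PDIA6, SDF2L1 and XBP1) ranged from -0.52 to 0.41 in log2 fold change with a median of -0.25, and 0 of them passed. Of the 9 values 7 were below 0 and 2 above. Over all genes 15.0% passed and 48.0% of the values were below 0.

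ER-associated degradation takes misfolded proteins from the ER to the proteasome. Of its 8 members 5 were tested, 1 rose and 4 did not pass. The share called was thus 20%, from 1 gene, against 15.0% of all genes. OS9 (chr12:57694132-57721557, GRCh38.p14), a lectin that hands misfolded glycoproteins to the SEL1L-SYVN1 ubiquitin ligase, had signals of 90.1, 80.6 and 103 in shTCF7L1 and 62.1, 57.7 and 49.5 in shCtrl. All shTCF7L1 arrays were above all shCtrl arrays. The log2 level was 6.26 ± 0.24 in shTCF7L1 and 5.53 ± 0.21 in shCtrl (SD, n = 3 each), so OS9 rose by 0.73 (SE 0.21, 95% interval 0.29 to 1.17), 1.66-fold (limma adjusted p = 0.0260). The call was lost when shCtrl replicate 3 (0.61, adjusted p = 0.106), shTCF7L1 replicate 1 (adjusted p = 0.0648) or shTCF7L1 replicate 3 (0.61, adjusted p = 0.0927) was left out, with a background offset of 50 (0.46, adjusted p = 0.0513) or without a detection filter (adjusted p = 0.0536). The OS9 promoter is shown as that of the one member that rose, at chr12:57693882-57694181 on the plus strand of GRCh38.p14 (RefSeq), and it holds no match to any of the motifs above.
OS9: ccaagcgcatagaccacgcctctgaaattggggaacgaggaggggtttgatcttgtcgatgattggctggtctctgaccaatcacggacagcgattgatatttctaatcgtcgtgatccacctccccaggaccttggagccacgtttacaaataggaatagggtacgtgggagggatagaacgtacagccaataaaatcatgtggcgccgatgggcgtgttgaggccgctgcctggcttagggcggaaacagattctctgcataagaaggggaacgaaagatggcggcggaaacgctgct

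The core of the ligase gave little to compare. SYVN1, the ubiquitin ligase HRD1, had 335, 284 and 289 in shTCF7L1 and 239, 254 and 321 in shCtrl, which overlapped (log2 difference 0.08, SE 0.21, limma adjusted p = 0.845). Its adaptor SEL1L was above background on 1 array of each group and was not tested, and HERPUD1, a cofactor of the ligase, was not analysed here. EDEM1, a mannosidase-like protein that marks glycoproteins for disposal, gave -0.25 (SE 0.20). Of the derlins, proteins of the export channel, DERL1 gave 0.23 (SE 0.21) and DERL2 -0.10 (SE 0.20), while DERL3 was above background on no array. None of the 4 passed, and the 5 tested members had a median of 0.08, which was below 0 without shCtrl replicate 1 (-0.066) or shTCF7L1 replicate 1 (-0.0045).

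Several probes were kept for 9 members, and in 6 of these all probes had the same sign. The signs differed for ATF4, ATF6B and MBTPS1. None of the 9 had more than 1 probe past the threshold, and the dimmer ASNS probe was the one that passed.

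**Figure D3:**
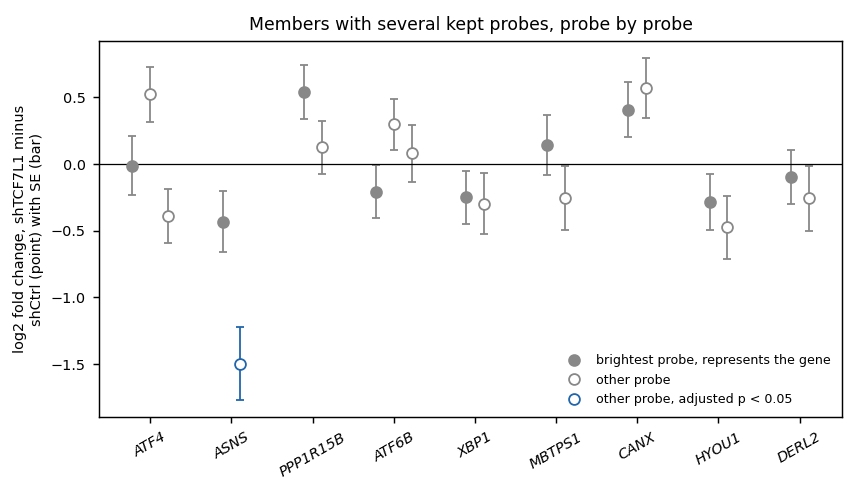
Log2 fold change with SE (y axis, shTCF7L1 minus shCtrl) of every kept probe of the 9 members with several, filled where the probe represents the gene. The brighter ASNS probe lies at -0.43 and the dimmer far below it, the ATF4 probes at -0.01, 0.52 and -0.39, and both CANX probes are above 0.

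Other genes of the pathway were taken as lists chosen with earlier results of these data known. Among 15 tested genes of amino acid supply that ATF4 can induce, 5 fell and 2 rose, 8 missed the threshold and the median was -0.45. That is 46.7% of this list, and over all genes 15.0% passed, 7.12% lower and 7.84% higher. PHGDH, the first enzyme of serine synthesis, fell by 2.19 on the log2 scale (SE 0.21) and the folate enzyme MTHFD2 by 1.05 (SE 0.24). The MTHFD2 call was lost without a detection filter (adjusted p = 0.0610). SLC6A9, a glycine transporter, was not above background in any shCtrl array, so it passed the detection filter through its shTCF7L1 arrays alone. It was at least 2.08-fold higher in shTCF7L1 and is counted among the 2 that rose. A rise was the only call open to it, so its p is not given as support. SLC7A1, a carrier of cationic amino acids, rose by 0.84 (SE 0.21), a call that needed shCtrl replicates 2 and 3 and shTCF7L1 replicate 2 (adjusted p of at most 0.0559 when one of them was missing). Without shCtrl replicates 1, 2 and 3 the list had 4, 3 and 4 calls in place of 7. Of the genes called in this list 5 were thus lower, PHGDH and MTHFD2 among them, and SLC6A9 and SLC7A1 were higher. Both called members of the ATF4 branch, TRIB3 and CEBPG, were lower.

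Of 13 tested tRNA synthetase and tRNA export genes of the ATF4 response 0 passed in limma and 2 had an unadjusted p below 0.05, with a median of 0.0048. VARS1, the valyl-tRNA synthetase gene, had the smallest p (log2 0.60, SE 0.22, adjusted p = 0.0756). Of 11 genes for the other eIF2 kinases, eIF2 and its exchange factor eIF2B, 1 rose: EIF2S1, the alpha subunit of eIF2 that the kinases phosphorylate, by 0.63 (SE 0.21, limma adjusted p = 0.0497). On 5 arrays EIF2S1 kept that call in the fit lacking shCtrl replicate 3 and in no other (adjusted p of at most 0.189). The share called was 9.09% in the eIF2 list and 0% in the tRNA list, against 15.0% of all genes.

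Among 18 other ATF4 and stress targets 4 rose and 2 fell, 12 missed the threshold and the median was 0.38. Values were above 0 for 14 of the 18, unlike in the amino acid supply list, where 11 of 15 were below 0. That is 33.3% of this list, against 15.0% of all genes. GDF15, a secreted stress factor, rose by 0.89 (SE 0.22), KLHL24 by 0.81 (SE 0.21) and the factor ATF3 by 0.74 (SE 0.20), while DDIT4, an inhibitor of mTORC1, fell by 0.77 (SE 0.23). GDF15 lost its call without shCtrl replicates 2 or 3, KLHL24 without shCtrl replicates 1 or 2, and ATF3 and DDIT4 each when any of 4 arrays was missing (shCtrl replicates 1 and 3, shTCF7L1 replicates 1 and 2). The whole list had 1 to 4 calls in such fits, in place of 6. In the ER folding and transport list 2 of 30 fell and 1 rose, 27 missed the threshold and the median was 0.09. Its share called, 10%, was below the 15.0% of all genes. HSPA13, an Hsp70-like protein, fell by 0.97 (SE 0.22), LMAN1, a cargo receptor between ER and Golgi, by 0.60 (SE 0.20), and SEC62, a subunit of the translocation machinery, rose by 0.79 (SE 0.22). LMAN1 lost its call in 12 of 15 alternatives, among them every fit on 5 arrays (adjusted p of at most 0.155), median scaling, both other background settings, the authors' processed values, the trended variance and the replicate block. The HSPA13 probe was above background on 1 shTCF7L1 array (signals of 38.9, 50.1 and 39.2) and on 3 shCtrl arrays. Its shCtrl arrays alone met the detection filter, and the size of its fall rests on shTCF7L1 signals near background. HSPA13 gave -0.17 when detection was required on all arrays, where another probe represents it. On 5 arrays the list had 1 or 2 calls in place of 3, and SEC62 kept its call in 1 such fit, the one lacking shCtrl replicate 1.

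Of 26 further degradation genes 3 fell and 1 rose, 22 missed the threshold and the median was 0.08. The share called, 15.4%, was close to the 15.0% of all genes. The deglycosylating enzyme NGLY1 fell by 1.23 (SE 0.26, limma adjusted p = 0.00561), ERLIN1, a scaffold for the disposal of receptors in the ER membrane, by 0.91 (SE 0.20, adjusted p = 0.00703) and UFD1, a cofactor of the p97 extraction motor, by 0.84 (SE 0.21, adjusted p = 0.0139). UBE2J1, a ubiquitin-conjugating enzyme of the ER membrane, rose by 0.86 (SE 0.21, adjusted p = 0.0109). NGLY1 lost its call without a detection filter (adjusted p = 0.0674). On 5 arrays the list had 3 or 4 calls. UFD1 lost its call when replicate 2 of either group was missing (adjusted p of at most 0.0639), and UBE2J1 when shCtrl replicate 1 was (adjusted p = 0.0510).

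**Figure D4:**
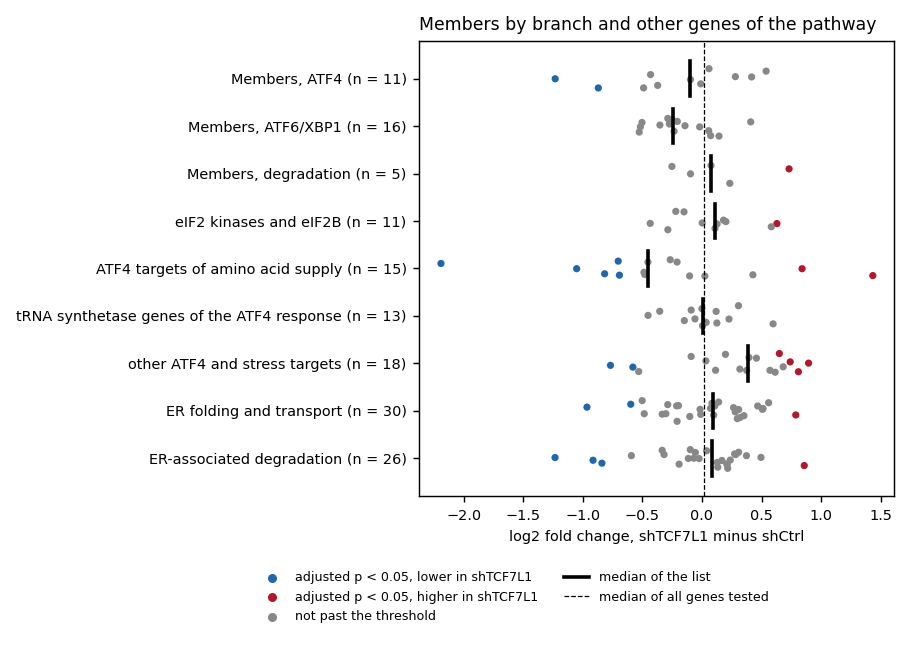
Log2 fold change (x axis, shTCF7L1 minus shCtrl) of each tested member by branch and of each tested gene of 6 further pathway lists, with list medians as bars and the median of all 10470 genes (0.02) as the dashed line. Medians run from -0.45 (amino acid supply) to 0.38 (other ATF4 and stress targets), and calls in both directions occur in 4 of the 6 further lists. The point at 1.43 is SLC6A9, whose shCtrl arrays were all below background and which entered the test through its shTCF7L1 arrays alone.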

How the data were processed

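RNA of 3 shTCF7L1 and 3 shCtrl samples was hybridised to Illumina BeadChips. The deposited non-normalized table holds, for each probe, an intensity (average bead signal, linear, per the file headers) and a detection p-value per the file headers, made with GenomeStudio 2011.1 per the submitters' processing notes. The authors' matrix of processed intensities, a straight-line function of that signal on each array as the deposited values show, served as an alternative.

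Intensities were corrected with normexp (offset 16; the detection p-values served to estimate the mean and SD of the negative controls), then quantile normalization and log2 followed, as in neqc of limma 3.58.1 (R 4.3.3). Probes with detection p below 0.01 on at least 3 of 6 arrays were kept (16835 of 47225). Symbols were updated through Entrez identifiers with RefSeq genes of GRCh38.p14, and 30110 probes had 1 symbol, 8 several and 17107 none. The brightest kept probe, by its mean over arrays, stands for a gene. Groups were compared with limma (lmFit, eBayes, 2-sided) without a block, with Benjamini-Hochberg over all 10470 genes, or over all kept probes for single probes. For a gene below background on all arrays of a group, the fold is a lower bound against the detection limit. The fit and the adjustment were tested on simulated log2 levels with independent normal noise and added shifts. Background correction, the detection filter and chip position were not part of that simulation.

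The members and lists were chosen with earlier results of these data known. All members are accounted for. In the further lists the up to 4 called genes of largest change are named, or the gene of smallest p where none was called. The number of arrays limits the precision.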

Additional observations from a re-analysis of the deposited data

How the results depend on the processing

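Over the 15 alternatives per gene (14 where a gene left the test), TRIB3 kept its call, and CEBPG and OS9 lost theirs in 6 and 5. The 3 calls among members became 1 without a detection filter, where 1 was lower, 0 were higher, and the ATF4 and degradation branches had 1 and 0. There 20043 genes enter both the variance estimate and the adjustment, and why calls were lost was not tested. With a background offset of 50, 0 members were higher and 0 passed in the degradation branch. With the authors' processed matrix 1 member was lower and 2 were higher. When any single array was left out, 1 to 3 members passed (1 or 2 lower, 0 or 1 higher, 1 or 2 in the ATF4 branch, 0 in the ATF6/XBP1 branch, 0 or 1 in the degradation branch). Over all genes 1007 to 1157 passed then, 479 to 560 lower and 508 to 597 higher, in place of 1566, 745 and 821; fewer samples enter these fits. With the replicate block 3 members and 1453 genes passed. Same-numbered arrays of the groups did not deviate together (correlations -0.0113, -0.00656 and -0.00576), and none of the arrays correlated best with its own number, so the numbers were not treated as pairs. The eIF2 list had 0 calls with the replicate block and without a detection filter, and 2 with median scaling or the authors' matrix, in place of 1. Without a detection filter the amino acid supply list had 4 calls in place of 7 and the other ATF4 and stress targets 3 in place of 6. EIF2S1, MTHFD2, GDF15, DDIT4, SEC62 and NGLY1 lost their calls there (adjusted p = 0.0536 to 0.124). Leaving out single arrays gave 0 to 1 calls in the eIF2 list, 3 to 6 in amino acid supply and 0 in the tRNA synthetases. In the same fits there were 1 to 4 in other ATF4 and stress targets, 1 to 2 in folding and transport and 3 to 4 in degradation. Of the 43 kept member probes 2 passed with an offset of 50, 1 without a detection filter and 2 to 4 with single arrays left out, in place of 4; these probe settings and those of the further lists were chosen after seeing the data.

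Sign changes were limited to members with values near 0 or with probes that disagree, and none of these passed under any setting. With the mean of kept probes ATF4 gave 0.0419, ATF6B 0.0575 and MBTPS1 -0.0548. With median scaling CEBPB gave -0.007 and CALR 0.0094, and with the authors' matrix CALR gave 0.055 and DERL2 0.014. With single arrays left out ATF4 ranged from -0.15 to 0.16, CEBPB from -0.020 to 0.14, PPP1R15A from -0.29 to 0.11, CREB3L2 from -0.014 to 0.13, MBTPS1 from -0.097 to 0.32, CALR from -0.17 to 0.080, CRELD2 from -0.057 to 0.20, SYVN1 from -0.066 to 0.21 and DERL2 from -0.21 to 0.013. Signals close to background limit, among others, SESN2, PPP1R15B, ATF6B, the dimmer DERL2 probe and the members that were not tested. The called gene OS9 was also dim in shCtrl (62.1, 57.7 and 49.5), and its difference was 0.46 with a background offset of 50.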
